A study of Homo sapiens with 6 samples.

Results

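The genes described here are 40 protein-coding genes of mitosis, chosen by name from the kinases that start it, the spindle checkpoint, the kinetochore, the spindle motors and the machinery of cell separation. All 40 were found among the 58233 genes of the deposited tables, by gene symbol, and a gene's level is the sum over its transcripts. The RNA of 6 samples labelled Huh7, a hepatocellular carcinoma line of human origin, was sequenced. For 3 libraries the cells had been transfected with a TP53TG1 plasmid, which carries a long noncoding RNA gene known as a p53 target. For the other 3 they had received an empty plasmid (control), so both groups share the transfection. The sources used here do not give the promoter on the plasmid, the time after transfection or whether replicates were separate cultures, so every p-value measures a spread between libraries that may be technical. Values are FPKM, fragments per kilobase of transcript divided by the depth of the library, and libraries are named by group and replicate number.

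Mitosis begins when CDK1, bound to a B-type cyclin, is freed of its inhibitory phosphates by the CDC25 phosphatases, and PLK1 and the Aurora kinases then drive the assembly of the spindle. The spindle checkpoint holds the anaphase-promoting complex in check through BUB1B, BUB3, MAD2L1 and CDC20 until every kinetochore is attached. Motors such as KIF11 push the poles apart, and PRC1, KIF23, KIF20A, ECT2 and ANLN then build the central spindle and the contractile ring. The messages of most of these genes peak together in G2 and mitosis. Before that they are held down by the DREAM complex, which p53 strengthens through p21, and later they are switched on by MuvB with B-MYB and FOXM1. Both complexes read a short promoter element, the cell cycle genes homology region (CHR), which often lies close to the start site and downstream of CCAAT boxes bound by NF-Y. Proliferating tumour cells such as hepatoma lines therefore carry high levels of the whole set, and a pathologist reads one member, the Ki-67 antigen encoded by MKI67, as a mark of dividing cells.

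These promoter elements were visible in the reference sequence. RefSeq windows of 250 bases before to 50 bases after the start site, build GRCh38.p14, were on hand for 33 of the 40 genes, in 42 windows. The CHR core TTTGAA, on either strand, lay in 28 of the 42 windows (66.7%), against 15.2% of all 35116 RefSeq windows. CCAAT, on either strand, lay in 31 of 42 (73.8%), against 34.6% of all windows, and both were found in 23 of 42 (54.8%), against 5.9% of all. The reverse complement of CCAAT can share letters with TTTGAA, and such matches were counted for both. The CHR core within the 60 bases before the start was found in 16 of 42 windows (38.1%), against 3.0% of all windows. These are matches of letters, not measured binding. UBE2C, AURKA, BUB3, FOXM1, TPX2, TTK and BIRC5 are named without a sequence. The 250 bases before the start of 4 genes whose levels are given below are shown on the strand of the gene, 5′ to 3′, with TTTGAA or its reverse complement TTCAAA and CCAAT in capitals. They are CCNB2 at chr15:59104896-59105145 (plus strand), CDC20 at chr1:43358731-43358980 (plus), PLK1 at chr16:23678639-23678888 (plus) and PRC1 at chr15:90994536-90994785 (minus).
CCNB2: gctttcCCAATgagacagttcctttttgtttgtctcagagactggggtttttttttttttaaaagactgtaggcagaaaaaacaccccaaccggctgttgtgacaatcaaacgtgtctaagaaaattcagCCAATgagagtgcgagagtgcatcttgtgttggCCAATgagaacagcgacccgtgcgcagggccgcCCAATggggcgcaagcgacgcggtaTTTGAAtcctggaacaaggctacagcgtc
CDC20: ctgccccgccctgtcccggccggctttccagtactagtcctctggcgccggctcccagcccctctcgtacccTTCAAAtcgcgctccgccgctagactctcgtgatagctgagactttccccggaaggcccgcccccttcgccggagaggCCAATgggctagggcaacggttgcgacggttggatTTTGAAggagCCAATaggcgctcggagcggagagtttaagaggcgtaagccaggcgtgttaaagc
PLK1: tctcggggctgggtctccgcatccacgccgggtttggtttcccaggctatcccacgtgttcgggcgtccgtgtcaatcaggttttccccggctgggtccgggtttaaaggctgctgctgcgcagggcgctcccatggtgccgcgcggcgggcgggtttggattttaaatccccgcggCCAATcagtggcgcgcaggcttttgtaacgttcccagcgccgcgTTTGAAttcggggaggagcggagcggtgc
PRC1: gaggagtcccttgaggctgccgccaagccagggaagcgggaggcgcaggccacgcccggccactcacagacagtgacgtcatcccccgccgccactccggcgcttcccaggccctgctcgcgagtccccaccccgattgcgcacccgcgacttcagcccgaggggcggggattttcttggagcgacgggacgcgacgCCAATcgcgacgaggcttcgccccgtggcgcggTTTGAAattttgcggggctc
Counted from the start site, with -1 the base before it, the first letter of the CHR core lay at -29 in CCNB2, -65 and -178 in CDC20, -29 in PLK1 and -20 in PRC1. The nearest CCAAT box began at -54 in CCNB2, -55 in CDC20, -73 in PLK1 and -53 in PRC1. In CCNB2, PLK1 and PRC1 a CCAAT box thus stood upstream of the CHR core, and CDC20 had one on each side of its nearer core. The core of CDC20 at -178 is on the opposite strand.

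The TP53TG1 gene itself had 69.8, 134.2 and 70.5 FPKM in TP53TG1 libraries 1, 2 and 3, against 10.6, 5.25 and 6.15 FPKM in control libraries 1, 2 and 3. The ratio of the means was 12.5, in the direction of the labels. Library totals were 599081 to 625560 FPKM in the TP53TG1 group and 667387 to 890541 FPKM in the control group, so a gene with the same share of every library has lower FPKM with TP53TG1. Depth is known only through the smallest steps of the values, which correspond to 11400000 to 16000000 fragments in TP53TG1 libraries and 12900000 to 14800000 fragments in control libraries if a step is 1 fragment. Replicate 1 of both groups stood apart, with coding transcripts of a mean length, weighted by FPKM, of 1228 nt (TP53TG1) and 1311 nt (control), where the other 4 libraries had 1652 to 1710 nt, and with 13.3% and 14.6% of FPKM in mitochondrial messages, where the others had 10.3% to 11.5%. Small structured RNAs took 5.27% in TP53TG1 replicate 1 and 0.242% to 1.13% in the other 5 libraries. Of 10 hepatocyte markers, 6 were high enough to be tested. FOXA2 was at 11.3 to 26.8 FPKM in TP53TG1 libraries and 26.2 to 39.1 in control libraries, HNF4A at 2.57 to 14.6 and 7.28 to 15.0, and TF at 3.51 to 9.19 and 7.94 to 10.3. Among the secreted products, ALB was at 0.56 to 1.22 FPKM in TP53TG1 libraries and 0.53 to 1.10 in control libraries. TTR was listed at 0 to 0.17 and 0 to 0.14 FPKM, and AFP at 0.63 to 3.49 and 1.83 to 2.37. APOA1, APOA2, APOB and SERPINA1 reached at most 2.41 FPKM in any library. The epithelial keratin KRT8 was at 1624 to 2083 and 1975 to 2848 FPKM, and KRT18 at 1010 to 1163 and 1031 to 1645. The other epithelial markers, KRT19, EPCAM and CDH1, reached at most 2.92 FPKM. ALB, AFP and the apolipoproteins were thus low in every library, and whether the cells are as labelled was not tested.

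The 40 mitotic genes did not separate the TP53TG1 libraries from the control libraries. Their summed level was 768.4, 2217 and 2076 FPKM in TP53TG1 libraries 1, 2 and 3, against 1296, 2408 and 2325 FPKM in control libraries 1, 2 and 3. Replicate 1 was the low library in both groups, and the groups overlapped. As a share of the library total the sum was 0.128%, 0.357% and 0.332% with TP53TG1, against 0.145%, 0.353% and 0.348% in control libraries. Median-of-ratios scaling divides each library by the median ratio of its genes to their geometric mean over libraries. It lines up the typical gene and does not make the library totals equal. The scaled sums were 1249, 1985 and 2088 scaled FPKM with TP53TG1, against 1159, 2024 and 1958 in control libraries. In replicate 1, TP53TG1 was below the control as a share of the total and above it after scaling. Within each replicate number the scaled sums of TP53TG1 and control thus lay far closer to each other than either group's replicate 1 lay to its replicates 2 and 3. In bulk RNA, fewer cells in mitosis and less of these messages per cell cannot be told apart.

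**Figure D1:**
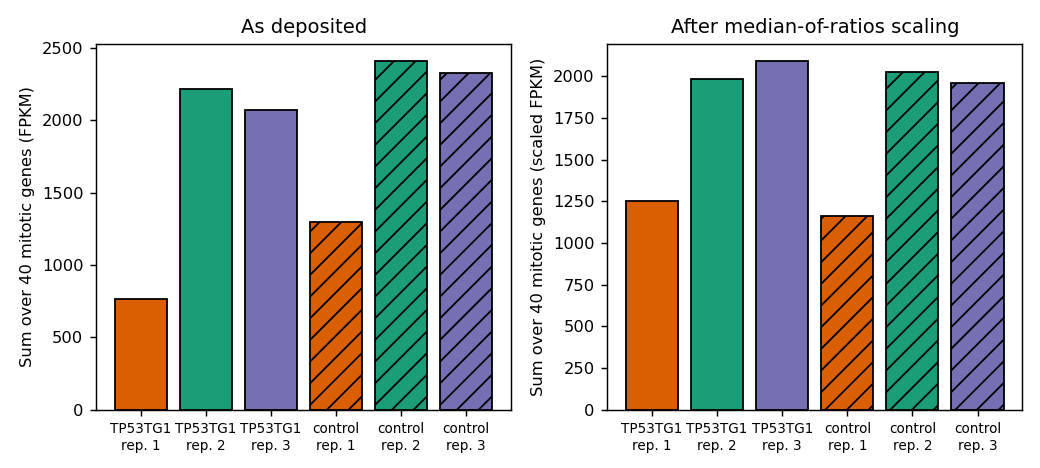
Summed level of the 40 mitotic genes in each library, in FPKM as deposited (left) and after median-of-ratios scaling (right), with TP53TG1 libraries plain and control libraries hatched, and colours marking replicate numbers. Replicate 1 is the lowest bar of each group, at 1249 scaled FPKM with TP53TG1 and 1159 in the control, and the other 4 libraries lie between 1958 and 2088.

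All 40 genes had a mean of at least 1 FPKM and were tested with the other genes that did, 12853 in all, on log2(FPKM + 1) with limma and Benjamini-Hochberg adjustment. No mitotic gene passed an adjusted p of 0.05, where 0.00778% of all tested genes did (1 gene, while TP53TG1 itself had an adjusted p of 0.0573). None had an unadjusted p under 0.05 in either direction, against 1.91% of all genes that were lower and 0.436% that were higher at that level. With the replicate number as a block in the limma fit, 0 of 40 were lower at an adjusted p of 0.05, against 0.91% of all genes, and 0 were higher, against 0.584%. The smallest unadjusted p among the 40 was 0.112 (CENPA) without the block and 0.0561 (KIF23) with it, and the smallest adjusted p were 0.748 and 0.471.

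Nor did any of the 40 have groups that stood fully apart. None had all TP53TG1 libraries below all control libraries as deposited, against 13.3% of all genes, and none had them above, against 0.428%. After scaling, 0 of 40 were apart in the lower direction, against 2.18% of all genes, and 0 in the higher direction, against 1.89%. For 35 of the 40, against 30.0% of all genes, both libraries numbered 1 lay below the other 4 after scaling. Such a gene cannot have groups that stand apart in either direction, so these counts of 0 say little about TP53TG1. Comparing libraries of the same number after scaling, CENPE and CENPF were lower with TP53TG1 in all 3 pairs (2 of 40, against 14.4% of all genes). AURKB, DLGAP5, ANLN and MKI67 were higher in all 3 (4 of 40, against 12.3% of all genes). The scaled level was higher with TP53TG1 for 26 of the 40 genes in pair 1, 16 in pair 2 and 25 in pair 3, with median log2 differences of 0.07, -0.03 and 0.11.

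With all 6 libraries, the median difference of the 40 was that of genes at large. The match was lost when replicate 1 of either group was left out, as given in the last section. The median log2 fold change of the 40, TP53TG1 minus control, was -0.35, and that of all tested genes was -0.35 too, with 20 of the 40 below it. The fold changes ran from -0.64 in KIF23 to 0.15 in MKI67, and 39 of 40 were below 0. After scaling, the median was 0.02 for the 40 and -0.01 for all genes, the values ran from -0.40 in CENPE to 0.46 in MKI67, and 18 were below 0. The signs given below for single genes are therefore those of FPKM as deposited, where the median of all genes is itself -0.35. How large a change could have been missed depends on the fit. The 95% interval reached 1.18 log2 units to each side for the median gene of the 40 as deposited, and 0.38 in the scaled fit that blocks on replicate number. That narrower interval covered 0 for all 40 genes and lay between -1 and 1 for 39 of them on this scale, where 1 FPKM is added to each value and the change of low genes is understated. It rests on 2 residual degrees of freedom per gene and on a trend shared by all genes. It also takes the replicate numbers as pairs, which the data do not show for numbers 2 and 3.

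**Figure D2:**
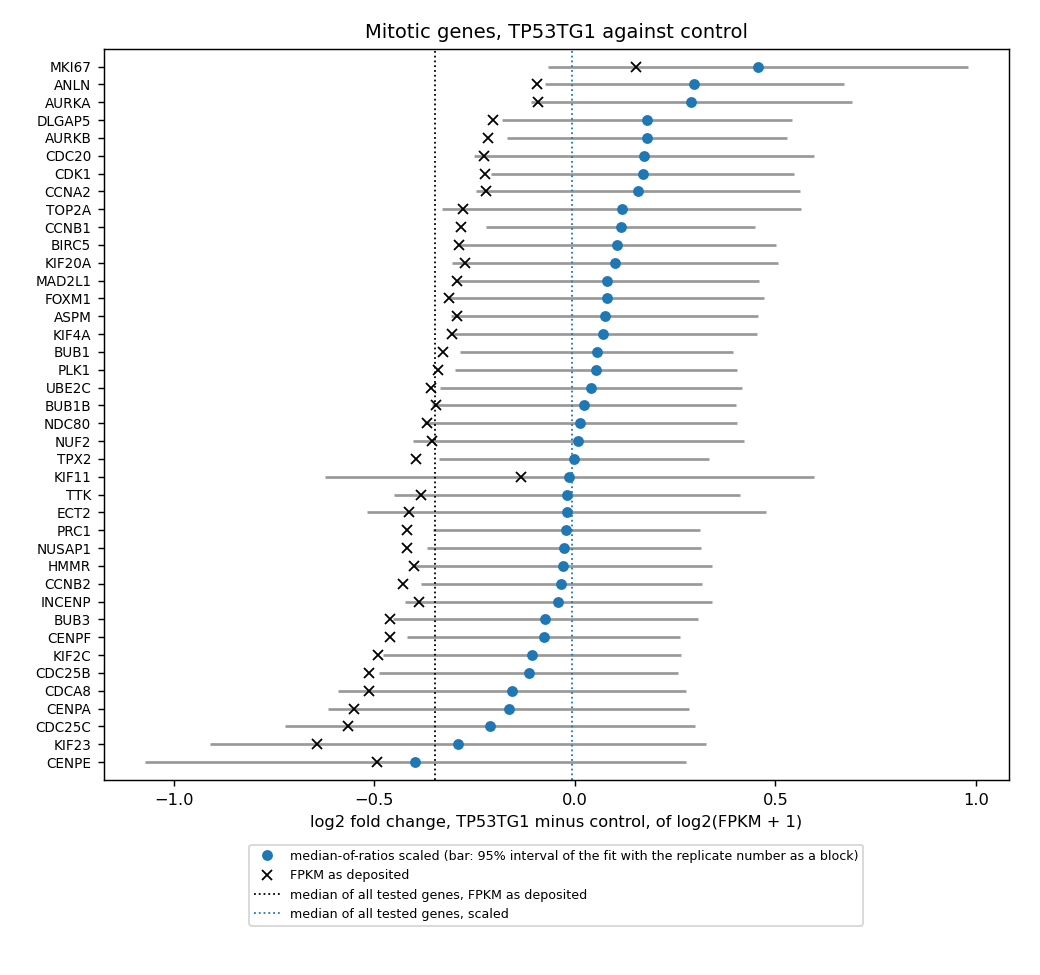
Log2 fold change of log2(FPKM + 1), TP53TG1 minus control, for each of the 40 mitotic genes, as deposited (crosses) and after median-of-ratios scaling (circles, with the 95% interval of the scaled fit that blocks on replicate number), beside the medians of all tested genes (dotted lines). Circles run from -0.40 in CENPE to 0.46 in MKI67, and every bar covers 0.

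Among the kinases and regulators of mitotic entry, CDK1, the kinase that drives it, had 27.4, 59.6 and 58.4 FPKM in TP53TG1 libraries 1, 2 and 3, against 40.1, 68.2 and 56.4 FPKM in control libraries 1, 2 and 3. Its main partner CCNB1 had 57.8, 134.0 and 144.7 FPKM with TP53TG1, against 91.7, 146.5 and 151.8 in control libraries. For both, replicate 1 was lowest in each group and the groups overlapped. The log2 fold change of CDK1 was -0.22 ± 0.37 (SE, n = 3 each, limma adjusted p 0.771) and that of CCNB1 was -0.28 ± 0.39 (limma adjusted p 0.751). After scaling they were 0.17, with an interval of -0.21 to 0.55, and 0.11, with an interval of -0.22 to 0.45.

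CCNB2, the second B-type cyclin, had 36.6, 69.0 and 52.2 FPKM with TP53TG1, against 60.8, 74.8 and 72.0 FPKM in control libraries. PLK1, the polo kinase that activates CDC25C and matures centrosomes, had 28.9, 69.0 and 83.8 FPKM with TP53TG1, against 49.9, 80.1 and 86.2 FPKM in control libraries. Both were lower with TP53TG1 in each numbered pair as deposited, where the median log2 fold change of all genes was -0.35, and their groups still overlapped. After scaling, neither was lower in every pair. The log2 fold changes were -0.43 ± 0.30 for CCNB2 and -0.34 ± 0.42 for PLK1 (SE, limma adjusted p 0.748 each), and after scaling -0.03 and 0.05. FOXM1, the transcription factor of the late cell cycle genes, had 22.3, 77.7 and 72.6 FPKM with TP53TG1, against 30.7, 90.1 and 88.4 in control libraries. Its log2 fold change was -0.31 ± 0.56 as deposited and 0.08 after scaling.

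The phosphatases that free CDK1 differed most, after scaling, between the groups in replicate 3. CDC25B had 45.4, 107.4 and 82.7 FPKM with TP53TG1, against 78.6, 117.3 and 128.8 in control libraries. CDC25C had 4.88, 10.6 and 5.46 FPKM with TP53TG1, against 7.95, 11.9 and 11.4 in control libraries. CDC25C was low in TP53TG1 libraries 1 and 3 and close to the control level in library 2. The scaled log2 difference, TP53TG1 minus control, was 0.14, -0.07 and -0.71 within pairs 1, 2 and 3 for CDC25C, and 0.07, -0.04 and -0.38 for CDC25B. As deposited, the ratio within pair 1 was 0.614 for CDC25C and 0.578 for CDC25B, and within pair 3 it was 0.479 and 0.642. The log2 fold changes were -0.57 ± 0.38 for CDC25C and -0.51 ± 0.37 for CDC25B (SE, limma adjusted p 0.748 each), and after scaling -0.21 and -0.11. Of the other entry genes, CCNA2, the A-type cyclin, had 9.34 to 34.6 FPKM with TP53TG1 and 15.6 to 36.5 FPKM in control libraries. AURKA, the centrosomal Aurora kinase, had 12.3 to 47.1 FPKM with TP53TG1 and 16.3 to 51.2 FPKM in control libraries.

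In the spindle checkpoint and its target, UBE2C, the ubiquitin-conjugating enzyme of the anaphase-promoting complex, was the most abundant of the 40 genes. It had 62.1, 124.7 and 158.4 FPKM with TP53TG1, against 121.2, 143.4 and 150.4 FPKM in control libraries. CDC20, the coactivator that the checkpoint restrains, had 44.6, 96.4 and 136.8 FPKM with TP53TG1, against 79.0, 109.0 and 110.3 FPKM in control libraries. As deposited, both had their highest value of all 6 libraries in TP53TG1 replicate 3 and their lowest in TP53TG1 replicate 1. The control values thus lay inside the TP53TG1 range. After scaling this still held for UBE2C. CDC20 was then lowest in control replicate 1, at 70.6 scaled FPKM against 72.5 in TP53TG1 replicate 1. The log2 fold change of UBE2C was -0.36 ± 0.36 (SE, limma adjusted p 0.748), and after scaling 0.04. BUB1B, the checkpoint kinase-like protein that holds CDC20, had 6.37, 26.9 and 24.8 FPKM with TP53TG1, against 11.1, 32.8 and 25.6 FPKM in control libraries, a log2 fold change of -0.35 ± 0.58, and 0.02 after scaling. The remaining checkpoint genes had overlapping groups as well. BUB1 ran from 11.3 to 47.9 FPKM with TP53TG1 and from 20.0 to 51.8 in control libraries, and BUB3 from 14.8 to 60.3 and from 34.4 to 72.0. MAD2L1, which forms the inhibitory complex with CDC20, ran from 8.47 to 31.6 and from 17.2 to 34.2 FPKM, and TTK, the kinase that recruits the checkpoint to kinetochores, from 5.66 to 17.9 and from 8.14 to 21.9 FPKM, TP53TG1 before control in each case.

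At the centromere, CENPA, the histone H3 variant that marks it, had the smallest p of the 40. The gene (ENSG00000115163) lies at chr2:26764289-26801067 on the plus strand in GENCODE 29, GRCh38. It had 16.0, 27.0 and 19.2 FPKM with TP53TG1, against 24.9, 32.8 and 33.5 FPKM in control libraries. It was lower with TP53TG1 in each numbered pair, and only TP53TG1 replicate 2 reached into the control range. The log2 fold change was -0.55 ± 0.31 (SE, limma unadjusted p 0.112, adjusted p 0.748). After scaling it was -0.16, with an interval of -0.61 to 0.28, and the sign in pair 1 turned. CENPF, a large outer kinetochore protein of G2 and mitosis, had 12.2, 48.7 and 38.2 FPKM with TP53TG1, against 22.2, 58.8 and 47.3 in control libraries. NDC80, the microtubule-binding subunit of its complex, had 11.2, 47.2 and 32.5 FPKM with TP53TG1, against 17.3, 47.3 and 46.8 in control libraries. Its partner NUF2 ran from 6.10 to 18.5 FPKM with TP53TG1 and from 9.09 to 19.0 FPKM in control libraries. CENPE, a kinetochore motor and the least abundant of the 40, lay just above the limit for testing and was listed at 0, 1.27 and 1.48 FPKM with TP53TG1, against 0.18, 3.65 and 1.87 FPKM in control libraries. An exact 0 in such tables can be a failed estimate.

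In the chromosomal passenger complex, which corrects wrong attachments, 2 genes varied less between replicates than the other 2. AURKB, its kinase, had 40.2, 73.3 and 77.3 FPKM with TP53TG1, against 56.4, 72.8 and 87.9 FPKM in control libraries. BIRC5 (survivin), its targeting subunit, had 28.4, 51.3 and 55.6 FPKM with TP53TG1, against 40.2, 62.7 and 59.4 in control libraries. The scaffold INCENP varied more, with 3.30, 33.6 and 27.8 FPKM with TP53TG1, against 7.45, 35.6 and 30.2 FPKM in control libraries. CDCA8 (borealin) ran from 4.20 to 26.8 FPKM with TP53TG1 and from 11.3 to 29.4 FPKM in control libraries. In all 4 the groups overlapped, and replicate 1 was the lowest library of each group.

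Of the spindle motors and microtubule proteins, TPX2, which activates AURKA on the spindle, had 25.2, 104.4 and 96.7 FPKM with TP53TG1, against 49.1, 113.8 and 105.7 FPKM in control libraries. NUSAP1, which bundles microtubules, had 22.9, 100.03 and 71.9 FPKM with TP53TG1, against 44.9, 114.7 and 78.3 FPKM in control libraries. KIF2C, the depolymerising kinesin of the centromere, had 12.4, 38.5 and 28.8 FPKM with TP53TG1, against 24.4, 38.4 and 42.8 in control libraries. KIF2C had a log2 fold change of -0.49 ± 0.44 (SE, limma adjusted p 0.748), and after scaling -0.11. KIF11, the motor that separates the poles, was listed at 0, 10.9 and 7.93 FPKM with TP53TG1, against 0.62, 9.95 and 6.93 FPKM in control libraries. It was thus near 0 in replicate 1 of both groups and no lower with TP53TG1 than in the control in replicates 2 and 3. KIF4A, a chromosome-bound motor, ran from 8.42 to 38.8 FPKM with TP53TG1 and from 12.7 to 41.9 in control libraries. ASPM, DLGAP5 and HMMR, which act at spindle poles and on kinetochore fibres, ran from 6.38 to 24.8, from 13.2 to 45.2 and from 7.22 to 27.8 FPKM with TP53TG1. In control libraries they ran from 9.55 to 29.4, from 20.9 to 48.0 and from 15.4 to 26.7 FPKM.

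For the central spindle and cell separation, PRC1, the bundler of antiparallel microtubules, had 54.3, 122.8 and 125.0 FPKM with TP53TG1, against 95.1, 146.3 and 144.7 FPKM in control libraries. ANLN (anillin), a scaffold of the contractile ring, had 22.6, 108.8 and 91.8 FPKM with TP53TG1, against 39.8, 90.0 and 77.8 FPKM in control libraries. ANLN was higher with TP53TG1 in replicates 2 and 3 and lower in replicate 1 as deposited. PRC1 was lower in all 3 pairs as deposited but not after scaling. The log2 fold change of PRC1 was -0.42 ± 0.37 (SE, limma adjusted p 0.748), and after scaling -0.02. KIF23 (ENSG00000137807, chr15:69414246-69448427, plus strand), the kinesin of the centralspindlin complex, had 3.31, 23.3 and 25.0 FPKM with TP53TG1, against 13.4, 24.1 and 27.7 FPKM in control libraries. Its log2 fold change of -0.64 ± 0.67 (SE, limma adjusted p 0.748) was the lowest of the 40 and came from replicate 1. Without the libraries numbered 1 and after scaling it was 0.075. The kinesin KIF20A ran from 7.79 to 36.9 FPKM with TP53TG1 and from 16.2 to 36.6 FPKM in control libraries, and ECT2, the exchange factor that starts the furrow, from 28.1 to 93.6 and from 37.5 to 99.7 FPKM.

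On the mitotic chromosomes, TOP2A (ENSG00000131747, chr17:40388516-40417950, minus strand), the topoisomerase that untangles sister DNA, had 35.2, 94.8 and 66.8 FPKM with TP53TG1, against 43.4, 101.8 and 91.0 FPKM in control libraries. MKI67 (ENSG00000148773, chr10:128096659-128126385, minus strand) had 1.95, 16.6 and 15.3 FPKM with TP53TG1, against 1.26, 14.0 and 17.2 FPKM in control libraries. The groups overlapped for both, and MKI67 was under 2 FPKM in replicate 1 of each group. The log2 fold changes were -0.28 ± 0.44 for TOP2A and 0.15 ± 0.91 for MKI67 (SE, limma adjusted p 0.763 and 0.928). MKI67 was the highest of the 40 after scaling, at 0.46 with an interval of -0.07 to 0.98, and its unadjusted p of 0.0775 in the scaled limma fit with the block was the smallest of the 40 there.

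**Figure D3:**
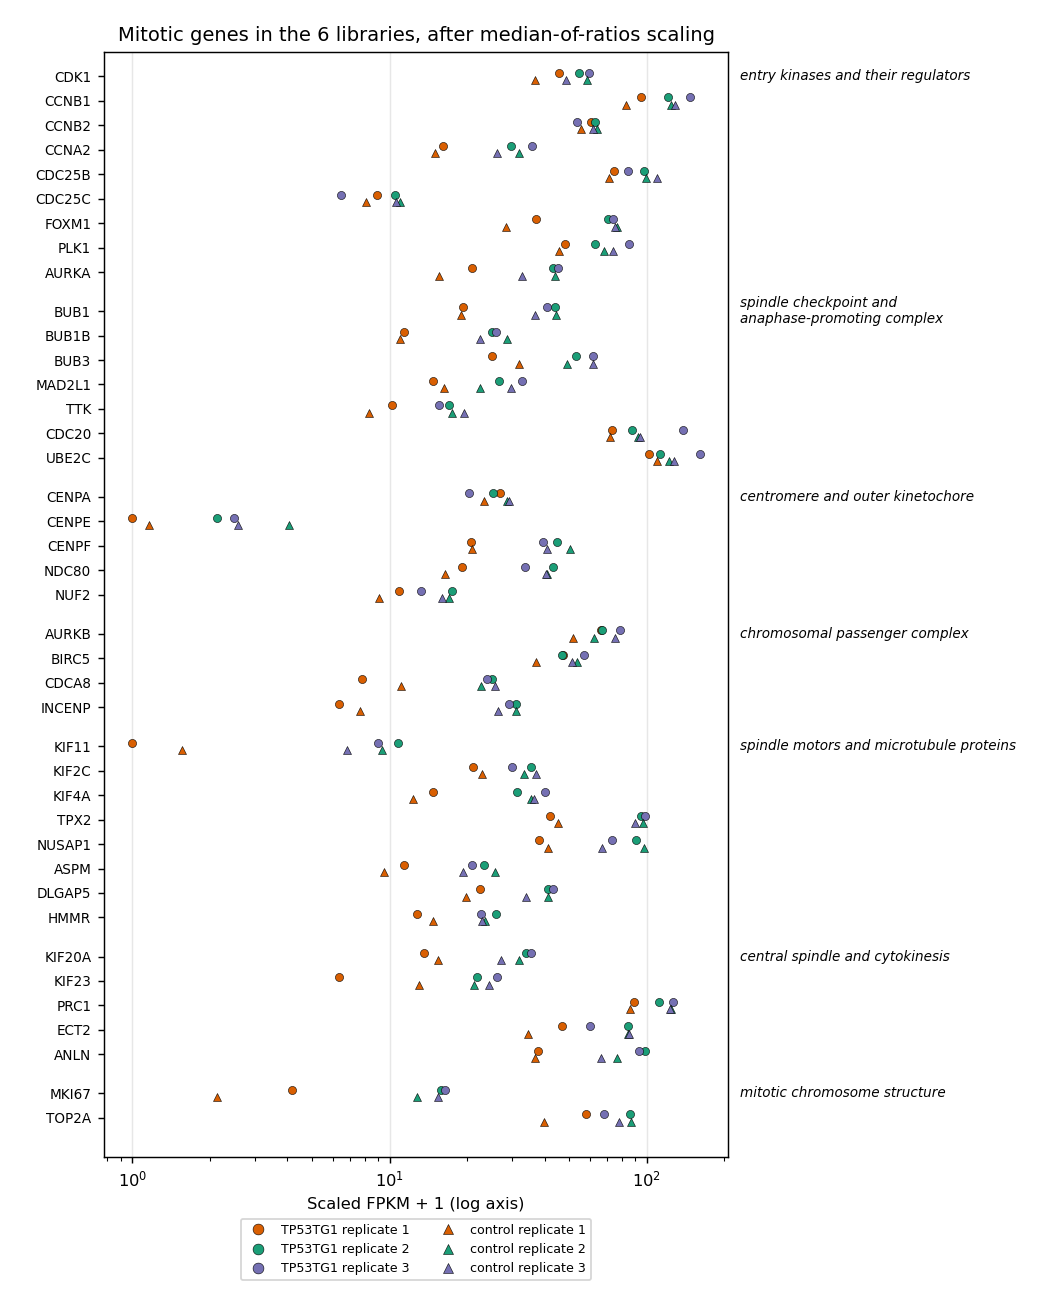
Scaled FPKM + 1 (log axis) of each of the 40 mitotic genes in the 6 libraries, grouped by role, with TP53TG1 libraries as circles above control libraries as triangles, and colours marking replicate numbers. The orange points of replicate 1 lie left of the others in both groups for 35 of the 40 genes.

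Other genes of the same machinery gave no call either. Of 36 other kinetochore and checkpoint genes, 19 subunits and coactivators of the anaphase-promoting complex, 18 condensin and cohesin genes, 29 tested genes of the centrosome, spindle and cytokinesis, and 26 genes of the DREAM and MuvB complexes and the entry brakes, 0 passed an adjusted p of 0.05 with limma in either direction, and 0 had an unadjusted p under 0.05. Over all tested genes 0.00778% passed the adjusted threshold, so a count of 0 there says little about these lists. At an unadjusted limma p under 0.05, 1.91% of all genes were lower and 0.436% higher. The median log2 fold changes of these lists, in the same order and minus that of all tested genes, were 0.13, -0.005, -0.04, 0.09 and 0.04. The inhibitor CDKN1B (p27), with the smallest p of the last list, had 15.1, 28.3 and 16.7 FPKM with TP53TG1, against 24.9, 27.7 and 38.0 FPKM in control libraries, a log2 fold change of -0.60 ± 0.34 (SE, limma unadjusted p 0.113, adjusted p 0.748).

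The 41 genes of DNA replication, which act in S phase just before, gave a median log2 fold change 0.24 above that of all genes, with 4 of 41 below it. In either direction 0 of 41 passed the threshold, against 0.00778% of all tested genes. The sum of the 41 genes was 713.8, 1710 and 2263 FPKM with TP53TG1, against 1305, 1942 and 1526 FPKM in control libraries. As deposited, it was thus higher with TP53TG1 only between the libraries numbered 3. The ratio of the mitotic to the replication sum was 1.08, 1.30 and 0.917 with TP53TG1, against 0.993, 1.24 and 1.52 in control libraries. The groups overlapped, and the lowest and the highest ratio were those of the 2 libraries numbered 3. Two-sided exact permutation of 3 against 3 libraries cannot give a p below 0.1, so no test of single sums was made.

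Markers of other cell types that a culture could hold were read as well. The 6 fibroblast markers summed to 22.6 to 32.5 FPKM with TP53TG1 and 19.1 to 21.5 FPKM in control libraries. The groups did not overlap, but the gap was narrow and the highest sum was that of TP53TG1 replicate 1. How often sums of other genes separate in this way was not tested. LUM, at 9.99 to 15.0 FPKM with TP53TG1 and 10.9 to 14.0 in control libraries, was the largest part in every library but TP53TG1 replicate 1. There COL1A1 was the largest, at 10.9 FPKM against 9.99 for LUM. COL1A1 had 10.9, 3.05 and 3.19 FPKM with TP53TG1, against 2.79, 1.81 and 2.85 FPKM in control libraries. Of this list 5 of 6 genes were tested, all with fold changes above the median of all genes. Of these 0 passed the threshold, against 0.00778% of all tested genes. The 5 leukocyte markers summed to 47.2 to 66.2 and 33.2 to 64.9 FPKM, nearly all of it CD68, at 45.2 to 65.2 and 32.4 to 62.1 FPKM, and the defining PTPRC was at 0 to 0.02 and 0.01 to 0.13 FPKM. The part of such markers in the levels of the mitotic genes was not tested.

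The largest variation of the mitotic genes ran between replicate numbers. After scaling, 35 of the 40 (87.5%) were lower in both libraries numbered 1 than in the other 4 libraries, against 30.0% of all tested genes, and 0 of 40 were higher in both, against 28.1% of all genes. The 5 exceptions were AURKB, BIRC5, CCNB2, CDC25C and CENPA. On the scale of log2(scaled FPKM + 1), the median difference of replicate 1 from the mean of replicates 2 and 3 was -0.955 in the TP53TG1 group and -0.944 in the control group for the 40 genes, against -0.04 and -0.01 for all genes. With 1 FPKM added to each level, KIF11 was 9.86-fold lower in TP53TG1 replicate 1 and 5.21-fold lower in control replicate 1 than in the mean of the other replicates of its group. MKI67 was 3.87-fold and 6.64-fold lower, and INCENP 4.72-fold and 3.74-fold. At the other end, the ratio of replicates 2 and 3 to replicate 1 was 0.961 with TP53TG1 and 1.13 in the control for CCNB2, and 0.844 and 1.25 for CENPA. The libraries numbered 1 were singled out after their values were seen, so these figures are a description, with no test.

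This difference ran with transcript length. Among all tested genes, the median difference of replicate 1 was 0.72 (TP53TG1) and 0.52 (control) on the log2 scale for genes under 1000 nt, and -0.77 and -0.66 for genes over 4000 nt. The mitotic genes followed the same order from a lower level. UBE2C, the 1 gene under 1000 nt, was at -0.42 and -0.19, the 13 genes of 1000 to 2000 nt had medians of -0.49 and -0.54, and the 14 of 2000 to 3000 nt of -0.94 and -0.93. The 4 genes of 3000 to 4000 nt had medians of -1.15 and -1.17, and the 8 genes over 4000 nt of -1.24 and -1.38. In each length class the median of the mitotic genes thus lay below that of all genes in both groups. Single genes did not all do so: TOP2A, at -0.40 in the TP53TG1 group, was above the median of all genes over 4000 nt. That value is of the sum over its transcripts. In TP53TG1 replicate 1 a 420 nt transcript held 68.2% of this sum, as given below. Across the 40 genes, the rank correlation of length with the difference was -0.53 in the TP53TG1 group and -0.71 in the control group, and across all genes -0.52 and -0.51. Genes of 1 library share its depth and RNA, so these are descriptions. What else set the libraries numbered 1 apart was not tested.

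**Figure D4:**
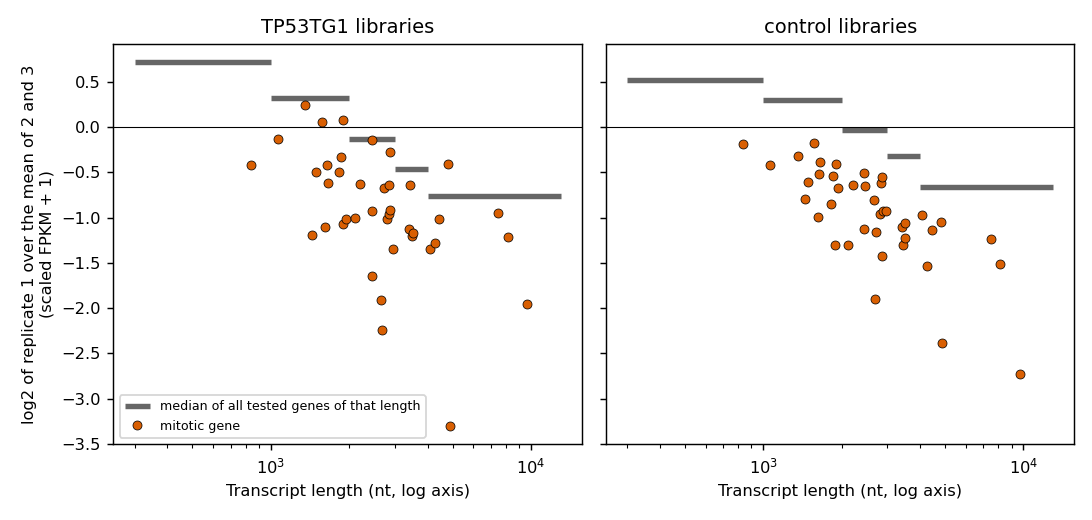
Log2 of replicate 1 over the mean of replicates 2 and 3 (scaled FPKM + 1) against transcript length (nt, log axis) for the 40 mitotic genes (points) and the median of all tested genes in 5 length classes (grey bars), for TP53TG1 (left) and control libraries (right). In both panels the points fall with length, and the medians of the mitotic genes lie below the grey bars in every class.

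The make-up of each gene from its transcripts also differed more between replicate numbers than between the groups. Of the 40 genes 38 had at least 2 transcripts with a value, and the one with the highest mean, called the main transcript, led in all 6 libraries in 20 of them (52.6%, against 53.7% of all such genes). Between TP53TG1 and control the share of the main transcript differed by a median of 3.52 percentage points in these genes and 4.55 in all genes. The groups stood apart in 1 of 38, TPX2, at 99.2% ± 0.14 with TP53TG1 and 99.4% ± 0.04 in control libraries (SD, n = 3 each), and in 5.33% of all genes. In 14 of 38 genes (36.8%) the main transcript had a lower share in both libraries numbered 1 than in the other 4, against 21.1% of all genes, and in 10 of 38 (26.3%) a higher one, against 27.1% of all.

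TOP2A, shown in the plot of transcript shares, is 1 such gene. Its full-length transcript ENST00000423485 (5758 nt) held 31.4%, 89.6% and 89.6% of the gene's FPKM in TP53TG1 libraries 1, 2 and 3, against 49.6%, 91.5% and 92.5% in control libraries. A 420 nt transcript, ENST00000577541, took 68.2%, 8.91% and 7.45% with TP53TG1, against 48.6%, 6.11% and 6.06% in control libraries. In the GENCODE annotation it starts 28348 nt downstream of the start of the main transcript and ends 10 nt before the end of it, so it covers the 3′ end of the gene only. The 728 nt transcript of PRC1 that starts 24068 nt downstream and ends 12 nt before the main end held 68.6%, 16.5% and 21.6% with TP53TG1, against 57.8%, 19.9% and 22.0% in control libraries. In ECT2, ASPM and FOXM1 the gaining transcript likewise started 51987, 11550 and 12087 nt downstream of the main one and ended within 4 nt of its end. In ANLN a retained-intron transcript that starts 59133 nt downstream took 67.5%, 0.59% and 1.91% with TP53TG1, against 42.0%, 0.34% and 0.80% in control libraries.

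In the rest of the 14 genes the gains were not of that kind. The gaining transcript starts upstream of the main one in CCNB1 and CDC25B, and 63 and 71 nt downstream in CDCA8 and CENPA. That of CCNB1, of 2169 nt against 1331 nt, also ends past the main end. In CENPF and MKI67 it starts far downstream but ends 7178 and 4825 nt before the main end. BUB1 and KIF20A are the others. BUB1 gave its main transcript 9.22%, 84.3% and 78.5% with TP53TG1, against 26.5%, 84.0% and 84.6% in control libraries. The transcript that gained, of 3576 nt against 3507 nt, starts 7 nt downstream of the main one and ends past the main end. In KIF20A a 2935 nt transcript had 73.6% in TP53TG1 replicate 1 and 35.1% in control replicate 1 and was listed at 0 in the other 4 libraries. PLK1 kept at least 97.7% of its FPKM in the main transcript with TP53TG1 and at least 97.6% in control libraries, and CDC20 kept 90.3% to 92.6% and 90.4% to 91.7%. Shares come from the authors' assignment of reads to overlapping transcripts, and the error of that assignment is not given.

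**Figure D5:**
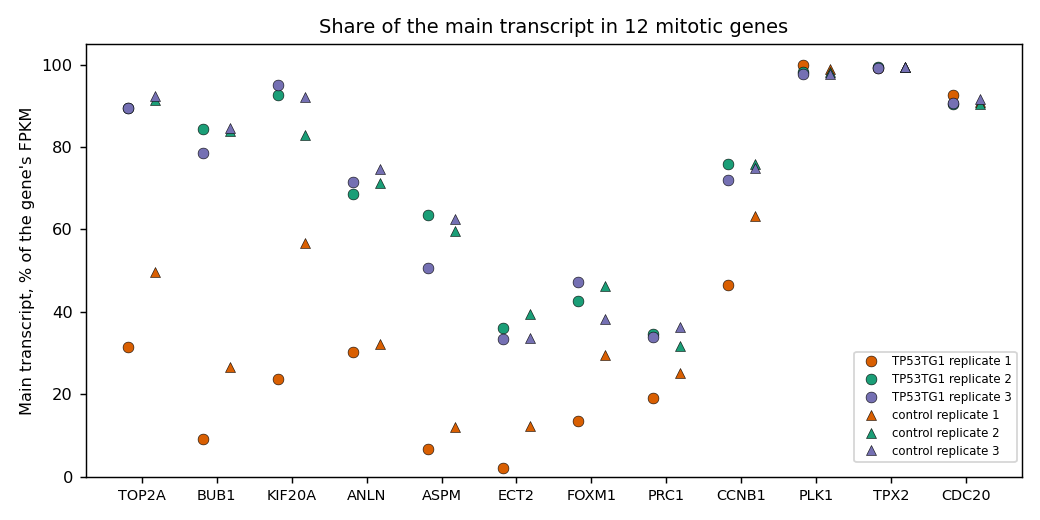
Share of the main transcript in the gene's FPKM (%) in 12 mitotic genes, chosen after their values were seen, with TP53TG1 libraries as circles left of control libraries as triangles and colours marking replicate numbers. In the first 9 genes the orange points of replicate 1 lie below the other 4 libraries in both groups, down to 2.03% in ECT2 with TP53TG1, while PLK1, TPX2 and CDC20 stay above 90.3%.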

How the data were processed

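Total RNA was extracted with TRIzol, treated with DNase I and made into TruSeq RNA libraries, per the labels' protocols. The submitters' processing notes name HISAT2, StringTie and the build GRCh38.p10. The sources used here give no versions, strandedness or read length, so reads of a gene and an antisense partner cannot be told apart. In each library the authors deposited a value for each of 199234 transcripts, taken here as FPKM because the headers give no unit and the totals differ between libraries. TPM with rows left out, or coverage, could not be told apart from FPKM by these values. Blank gene symbols (0 to 88000 per library) were filled from the other libraries by transcript. Lengths and gene positions came from GENCODE 29. Reads shared with processed pseudogenes, such as those of AURKA and CDC20, may have been split in a way that is not given.

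The 12853 genes whose mean reached 1 FPKM were fitted with limma 3.58.1 (eBayes with trend, R 4.3.3) on log2(FPKM + 1), as TP53TG1 minus control. P-values were adjusted after Benjamini and Hochberg, and 0.05 was the threshold. The fold change on this scale understates that of low genes. Median-of-ratios factors used the 16218 genes above 0 in all 6 libraries. Other fits changed the scaling, pseudocount (0.1), filter (none, or a mean of 5 FPKM), block and libraries. Tables and figures were made in Python 3.11.15 with pandas 2.3.3 and matplotlib 3.10.9.

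Replicate numbers come from the labels, which do not say what a number marks. Across genes, a library's deviation from its group mean correlated with that of the same number in the other group at 0.710 (number 1), 0.562 (2) and 0.289 (3). All were over 0.1, the limit used for taking the numbers as pairs. Unlike numbers reached 0.400 (TP53TG1 replicate 2 with control replicate 3) and 0.302 (TP53TG1 replicate 3 with control replicate 2). Both exceed the 0.289 of number 3, so numbers 2 and 3 are not shown to pair. With deviations from a mean of 3 libraries, a number 1 that stands apart in both groups itself makes the others correlate. The limit therefore cannot decide the pairing of numbers 2 and 3, and the block and the numbered pairs take it from the labels. No libraries were identical: at least 77068 transcripts differed between any 2.

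The 40 genes and the other lists were chosen with earlier results of these data known. Fold changes are given for CDK1, CCNB1, PLK1, BUB1B, FOXM1, MKI67, TOP2A and the 8 members with the smallest p, and values per library also for the 2 most abundant members of each role. Others named were chosen after their values were seen. Of the other lists, at most the 2 genes with the smallest p were named, as well as markers.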

Additional observations from a re-analysis of the deposited data

How the results depend on the processing

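No mitotic gene passed the threshold under any of the alternatives run, with or without the replicate block. The count over all tested genes, 1 as reported, was 2 with median-of-ratios scaling, 0 with no filter on low values, 2 with a mean of at least 5 FPKM, 192 with the replicate block, 6 with the block and median-of-ratios scaling, and 10 without the libraries numbered 1 with median-of-ratios scaling, an alternative chosen after seeing the data. It ran from 0 to 1 when single libraries were left out, and was 0 without control replicate 1. The block changed no call of the 40 genes. The median log2 fold change of the 40 was 0.02 with median-of-ratios scaling and -0.10 with the same total per library, and ran from -0.725 without control replicate 1 to 0.188 without TP53TG1 replicate 1. Relative to all genes these 2 settings gave -0.35 and 0.31. Between the values as deposited and median-of-ratios scaling the direction turned in 21 of the 40 genes. Of the 15 genes whose fold changes were followed through every alternative, 9 turned in at least 1. Median-of-ratios scaling, with or without the block, gave 0.17 for CDK1, 0.11 for CCNB1, 0.054 for PLK1, 0.023 for BUB1B, 0.08 for FOXM1, 0.12 for TOP2A and 0.04 for UBE2C, all negative as deposited, and CDK1 was at 0.035 with the same total per library. That scaling without the libraries numbered 1 gave 0.10 for CDK1, 0.074 for CCNB1, 0.045 for PLK1, 0.008 for BUB1B, 0.11 for UBE2C and 0.075 for KIF23. Leaving out single libraries gave ranges of -0.43 to 0.135 for CDK1, -0.52 to 0.13 for CCNB1, -0.638 to 0.115 for PLK1, -0.78 to 0.28 for BUB1B, -0.82 to 0.26 for FOXM1, -0.805 to 0.993 for MKI67, -0.66 to 0.11 for TOP2A, -0.64 to 0.029 for UBE2C and -1.09 to 0.21 for KIF23. The upper end was without TP53TG1 replicate 1 in each. MKI67 was also negative without TP53TG1 replicate 2 (-0.30) or 3 (-0.24). None of these values passed the threshold, and the cause was not tested. The precision of CENPE, KIF11 and MKI67 is least known in the libraries numbered 1, where they were at 0 to 1.95 FPKM and an exact 0 can be a failed estimate.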
